A study of Mus musculus with 4 samples.

Results

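The ATF4 branch of the integrated stress response was followed in CD4 T cells with and without ectopic Tox expression, through 10 genes taken by symbol from the deposited gene tables. These were *Atf4* itself, the related basic leucine zipper factors *Atf3*, *Atf5*, *Ddit3* and *Cebpb*, and the target or feedback genes *Asns*, *Trib3*, *Chac1*, *Sesn2* and *Ppp1r15a*. All 10 were listed among the 24369 genes, and all 10 had enough counts to be among the 14143 genes tested. Naïve CD4 T cells from the spleens of WT C57BL/6 mice were activated through CD3 and CD28 in the presence of IL-2 and left unpolarized (the sample labels write anti-CD28 a second time where the methods name IL-2). On day 2 they received an MSCV retrovirus carrying GFP alone (empty vector, EV RV) or Tox and GFP (Tox RV), on day 5 they were restimulated for 5 h (through CD3 in the methods, through CD3 and CD28 in the study's text), and GFP+ cells were sorted for bulk RNA-seq. Each group had 2 libraries, standing for 2 mice, so both groups share activation, transduction, restimulation and sorting and differ in the Tox insert. Tox came from the retroviral vector (MSCV-Tox-IRES-eGFP, with MSCV-IRES-eGFP as the control), and neither the labels nor the RNA-seq methods give the age of these mice.

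In the integrated stress response, kinases that sense amino acid shortage, unfolded protein in the endoplasmic reticulum, heme shortage or viral RNA phosphorylate the initiation factor eIF2, which slows most translation but favors that of the *Atf4* mRNA. The ATF4 protein then pairs with C/EBP family factors on C/EBP-ATF elements and turns on genes for amino acid supply, further stress factors and, finally, feedback inhibitors. Activated T cells use this route to meet their demand for amino acids. Because ATF4 is set largely by translation, its mRNA level does not report the protein, and neither eIF2 phosphorylation nor protein was measured in these libraries.

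Letters of the C/EBP-ATF element, to which ATF4 is known to bind, occur in the promoters of several of the 10 genes, and these stretches are shown so that the letters can be compared between the genes. RefSeq promoters (build GRCm38.p6, 250 bases before to 50 after each start site) were matched for all 10 genes, as 11 promoters. The letters TGATGNAA, read on both strands, occurred in promoters of 4 of the 10 genes (*Atf3*, *Chac1*, *Trib3* and *Asns*), against 4.51% of the 27025 genes in the table. The stricter TGATGCAA, one form of the same letters, occurred in 2 of the 10, against 1.03% of genes. CCAAT, the letters bound by NF-Y, occurred in 6 of the 10, against 41.1% of genes. Each stretch below has 30 bases, written in the direction of the gene with the matched letters in capitals.
Atf3: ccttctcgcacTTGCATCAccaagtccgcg
Chac1: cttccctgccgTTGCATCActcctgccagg
Trib3: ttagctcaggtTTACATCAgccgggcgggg
Asns: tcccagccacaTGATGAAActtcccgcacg
Ppp1r15a: cgcctctccggTGACGTCAgcacagcgccg
The stretches lie at chr1:191183425-191183454 (minus strand) for *Atf3*, chr2:119351038-119351067 (plus) for *Chac1*, chr2:152344028-152344057 (minus) for *Trib3* and chr6:7693214-7693243 (minus) for *Asns*. The match begins 110 bases before the start site in *Atf3*, 193 before it in *Chac1* and 23 before it in *Asns*, and in *Trib3* at base 15 of the transcript. The *Ppp1r15a* stretch, at chr7:45526262-45526291 (minus), holds no such element and is shown for contrast with its full cAMP response element TGACGTCA, which occurred in 2.03% of genes and was searched after the sequences were seen. The promoter of *Chac1* also holds TGACGCAA, found in 0.562% of genes and searched likewise. A match of letters is a description, and the absence of one in this window says nothing of the rest of the locus.

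Levels are given as CPM, the counts per 1000000 counts of a library after TMM scaling, and comparisons between genes as TPM, which also divides by length. Paired values are those of replicate 1 and then replicate 2, and P-values are from edgeR's quasi-likelihood test unless another tool is named. The deposited expected counts summed to between 46989997 and 74548723 per library. *Tox* was at 11.7 and 5.73 CPM with EV RV against 121 and 99.9 CPM with Tox RV, which placed every library on the side of its label. Even this difference (log2 fold change 3.68, standard error 0.38) was not called, as edgeR gave *Tox* an adjusted p of 0.490. The study, which tested with DESeq2, reports *Tox* as one of its top upregulated genes. One library stood apart, as EV RV replicate 1 lay at -53.8 on the first principal component (58.0% of the variance) with the others between 5.70 and 25.8. The 45S pre-ribosomal RNA took 24.7% of its counts and as little as 7.14% in Tox RV replicate 2. The 8 CD4 T cell markers summed to 1746 to 2472 CPM, the CD8 markers to 3.88 to 4.77 and the myeloid markers to 3.99 to 5.44. Of the B cell markers, *Cd79a* had 13 to 62 counts and *Cd79b* 21 to 66 counts in a library, *Ms4a1* and *Pax5* were at 0 in every library, and the myeloid marker *Lyz2* stayed at 3 counts or fewer. The NK markers summed to 52.0 and 12.6 CPM with EV RV and to 28.1 and 7.04 CPM with Tox RV, while *Ncr1* was at 0 counts throughout.

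Ectopic Tox expression was not accompanied by a change of the ATF4 group that passed the test. In edgeR's quasi-likelihood test, 0 of the 10 genes and 0% of all genes tested had an adjusted p-value below 0.05. *Chac1* alone had an unadjusted p-value below 0.05, on the lower side, where 2.55% of all genes passed, and 3.62% passed in either direction (152 higher and 360 lower, or 260 higher and 205 lower when libraries were scaled by their totals). DESeq2 called 0 of the 10, against 0.114% of the genes it tested, and had 0 of the 10 at an unadjusted p-value below 0.05, against 3.21%. With the replicate number as a block, edgeR called 0 of the 10 and 0.113% of all genes. No member differed more than 2-fold, compared with 3.38% of all genes. Of the 10, 5 had a log2 fold change above 0 and 5 below (49.6% of all genes were below), and the median was -0.02 against 0.00 over all genes tested. In bulk RNA, fewer cells expressing a gene and less RNA per cell cannot be told apart.

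Most of these genes differed more between the EV RV libraries, taken singly, than between EV RV and Tox RV, fitted over 2 libraries each. How many of all genes did so was not counted. For 7 of the 10 genes, grouped after their values were seen, EV RV replicate 1 lay below EV RV replicate 2 by 0.64 to 1.15 on the log2 scale, a gap that 10.4% of all genes tested reached. These were *Atf4*, *Atf3*, *Atf5*, *Ddit3*, *Trib3*, *Asns* and *Cebpb*. The Tox RV libraries fell between the EV RV libraries in all of them save *Cebpb*, where Tox RV replicate 2 was the highest. In *Chac1*, *Sesn2* and *Ppp1r15a* the EV RV libraries differed by at most 0.30 on the log2 scale, and the groups did not overlap. These 3 of 10 compare with 36.0% of all genes whose groups did not overlap.

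**Figure D1:**
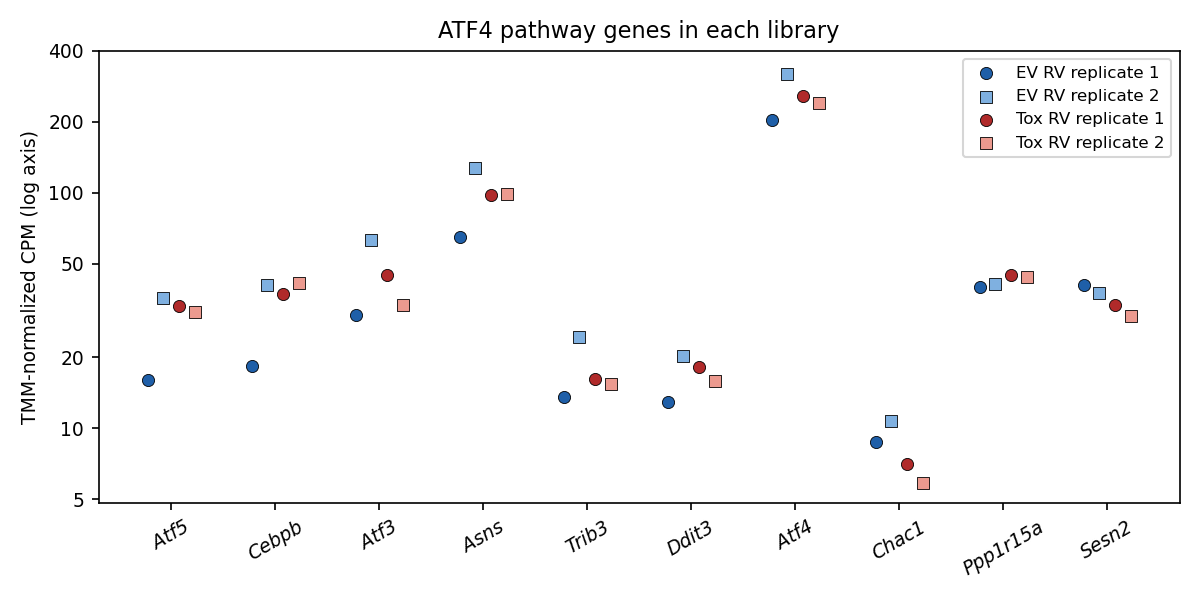
TMM-normalized CPM (log axis) of the 10 genes, with a point for each library, EV RV in blue and Tox RV in red, circles for replicate 1 and squares for replicate 2. From *Atf5* to *Atf4* the EV RV replicate 1 point is the lowest of its gene, while in *Chac1* and *Sesn2* both Tox RV points lie below both EV RV points.

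*Atf4* encodes the factor that gives the branch its name. It was by far the most abundant of the 10 per length, at 243 to 354 TPM. Its level was 204 and 319 CPM with EV RV against 256 and 241 CPM with Tox RV. The Tox RV libraries sat close together and inside the EV RV range. This came to a log2 fold change of -0.07 (standard error 0.25, 95% interval -0.68 to 0.53), and edgeR gave an adjusted p of 0.959. A 2-fold change in either direction lies outside that interval. The gene lies at chr15:80255184-80257545 of mm10 (plus strand), and 2 RefSeq transcripts of it were quantified together.

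Among the partner and relay factors, *Cebpb* encodes C/EBPβ, a dimer partner of ATF4 that is itself a stress-induced gene. It was at 18.4 and 40.4 CPM with EV RV against 37.2 and 41.2 CPM with Tox RV. Thus 3 libraries were alike and EV RV replicate 1 stood well below them. Its log2 fold change of 0.41 was the highest of the 10 (standard error 0.37, 95% interval -0.50 to 1.33, edgeR adjusted p = 0.897). A stretch of 320 bases of *Cebpb* is 99.4% identical to a *Tmem189* transcript, and *Tmem189* was at 39.1 to 44.1 CPM. *Atf5* encodes a close relative of ATF4 whose mRNA is likewise favored under stress. It showed the same arrangement, with 16.1 and 35.6 CPM with EV RV against 33.1 and 31.1 CPM with Tox RV. The log2 fold change of *Atf5* was 0.31 (standard error 0.37), and its EV RV gap of -1.15 was at percentile 2.46 of all genes tested. *Atf5* shares 571 bases with *Nup62* on the other strand, and use of strand in counting is not stated. *Nup62* had a log2 fold change of 0.04.

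*Atf3* encodes a repressor induced downstream of ATF4 and by many other stimuli. It was at 30.3 and 63.2 CPM with EV RV against 44.7 and 33.4 CPM with Tox RV. This was the member with the widest gap between the Tox RV libraries, at 0.42 on the log2 scale, and still a narrower one than the 1.06 between the EV RV libraries. Its log2 fold change was -0.26 (standard error 0.37, 95% interval -1.17 to 0.65). *Ddit3* encodes CHOP, which promotes cell death when stress persists. Its levels of 12.9 and 20.2 CPM with EV RV against 18.2 and 15.9 CPM with Tox RV gave a log2 fold change of 0.04 (standard error 0.26). For *Ddit3*, too, both Tox RV libraries fell inside the EV RV range. *Ddit3* overlaps the ends of *Mbd6* and *Mars* by 77 and 71 bases. *Mbd6* was at 28.6 CPM in EV RV replicate 1 and at 8.46 to 10.7 CPM in the other libraries, a pattern opposite to that of *Ddit3*. *Mars* was at 106 and 122 CPM with EV RV against 104 and 107 CPM with Tox RV. Its EV RV libraries thus differed in the same direction as those of *Ddit3*, and the part of either overlap was not tested.

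The metabolic target *Asns* encodes asparagine synthetase and is the classical gene turned on by ATF4 when amino acids run short. It ranked second of the 10 per length, at 60.9 to 113 TPM. Its level was 64.8 and 127 CPM with EV RV against 97.3 and 98.3 CPM with Tox RV. The Tox RV libraries were nearly identical, midway between EV RV libraries that differed 1.96-fold. This came to a log2 fold change of 0.03 (standard error 0.32, 95% interval -0.77 to 0.83).

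*Chac1* encodes an enzyme that breaks down glutathione and is one of the most specific ATF4 targets. It was the least abundant of the 10 per length, at 6.31 to 11.9 TPM, from 305 to 821 counts. It was at 8.75 and 10.8 CPM with EV RV against 7.03 and 5.88 CPM with Tox RV. With Tox RV both values were below those with EV RV, an arrangement that 17.4% of all genes tested showed in this direction. The log2 fold change was -0.60 (standard error 0.23, 95% interval -1.17 to -0.03), or 1.51-fold lower in Tox RV. edgeR's quasi-likelihood test gave it an unadjusted p-value of 0.0427, which became 0.897 after adjustment over all genes. By unadjusted p-value *Chac1* ranked 428 of the 14143 genes. The unadjusted p-value was 0.0516 with DESeq2 and 0.108 in edgeR with scaling by library totals. In the remaining settings that kept all libraries it lay between 0.0221 (limma on log2(TPM + 0.1)) and 0.0416 (edgeR with median-of-ratios scaling). *Chac1* was called in none of these settings. Omitting single libraries moved the value of *Chac1* between -0.74 and -0.43.

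Of the inhibitors and feedback genes, *Sesn2* encodes sestrin 2, which senses leucine and restrains mTORC1. It was at 40.5 and 37.7 CPM with EV RV against 33.5 and 29.9 CPM with Tox RV. Both Tox RV libraries were again the lowest. This gave *Sesn2* a log2 fold change of -0.30 (standard error 0.17, 95% interval -0.73 to 0.12, edgeR adjusted p = 0.897). *Ppp1r15a* encodes GADD34, the subunit that directs phosphatase to eIF2 and so ends the response. It was the steadiest of the 10, at 39.8 and 41.2 CPM with EV RV against 44.9 and 43.9 CPM with Tox RV. Both Tox RV libraries were above both EV RV libraries, as in 18.6% of all genes tested. Its log2 fold change came to 0.13 (standard error 0.16, 95% interval -0.27 to 0.53). It overlaps *Tulp2* by 730 bases on the other strand, and *Tulp2* was at 0.193 to 0.498 CPM.

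*Trib3* encodes a pseudokinase that binds ATF4 and CHOP and damps their activity. Its level was 13.5 and 24.4 CPM with EV RV against 16.2 and 15.4 CPM with Tox RV. EV RV replicate 2 stood above the other 3 libraries. For *Trib3* this gave a log2 fold change of -0.27 (standard error 0.30, 95% interval -1.01 to 0.48).

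On mm10 the remaining genes lie at chr1:191170296-191183333 (*Atf3*, minus strand), chr7:44812256-44816658 (*Atf5*, minus), chr10:127290793-127296291 (*Ddit3*, plus), chr2:152337425-152344060 (*Trib3*, minus), chr6:7675165-7693209 (*Asns*, minus), chr2:119351242-119354326 (*Chac1*, plus), chr4:132492804-132510456 (*Sesn2*, minus), chr2:167688915-167690432 (*Cebpb*, plus) and chr7:45522917-45526268 (*Ppp1r15a*, minus). Per length the order was *Atf4*, then *Asns*, then a band of 6 genes (*Cebpb*, *Atf3*, *Ddit3*, *Ppp1r15a*, *Atf5* and *Sesn2*) at library values of 16.1 to 54.8 TPM, then *Trib3* at 11.9 to 20.4 TPM and *Chac1*. The ranges of *Atf4* and *Asns* overlapped those of no other member. Neighbors within the band overlapped, as did *Sesn2* with *Trib3* and *Trib3* with *Chac1*.

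The gap between replicates was wider in EV RV than in Tox RV cells for 9 of the 10 genes, and EV RV was also the wider group over all genes. The median size of the gap over the 10 was 0.75 on the log2 scale in EV RV and 0.12 in Tox RV, against 0.37 and 0.17 over all genes tested. EV RV replicate 1 was the lowest of the 4 libraries in 8 of the 10, compared with 37.0% of all genes. This library was also the one with 24.7% of counts from 45S pre-ribosomal RNA and with the highest NK marker sum, and the part of either in its lower ATF4 group values was not tested.

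**Figure D2:**
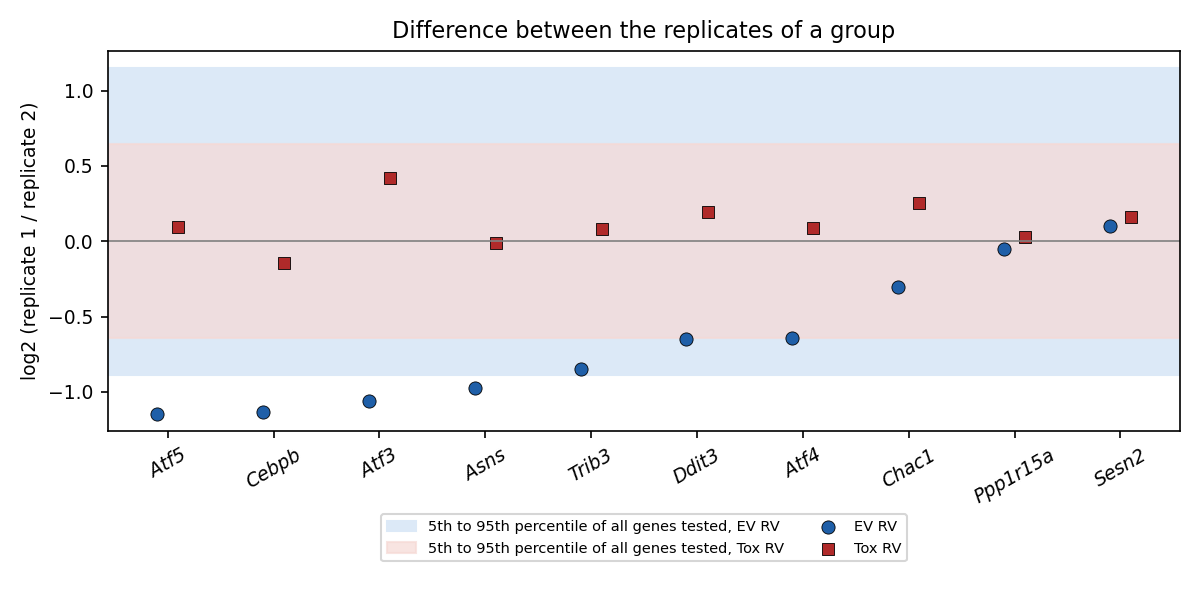
Log2 ratio of replicate 1 to replicate 2 within EV RV (blue circles) and within Tox RV (red squares) for each of the 10 genes, over bands that span the 5th to 95th percentile of all genes tested (-0.89 to 1.15 in EV RV, -0.64 to 0.65 in Tox RV). *Atf5*, *Cebpb*, *Atf3* and *Asns* lie below the EV RV band, and all Tox RV points lie inside theirs.

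The direction of the comparison therefore turned on which EV RV library served as the control. Without EV RV replicate 1, 9 of the 10 genes had a log2 fold change below 0, against 49.9% of all genes, and their median was -0.31. In that fit 5 of the 10 (*Atf4*, *Atf3*, *Trib3*, *Asns* and *Chac1*) were lower with an unadjusted p-value below 0.05 in edgeR's quasi-likelihood test, where 4.20% of all genes were (7.49% in either direction), and 0 of the 10 were called, against 0.00685% of all genes. Without EV RV replicate 2, 8 of the 10 had a log2 fold change above 0, against 51.7% of all genes, and their median was 0.33. In that fit *Atf5* (log2 fold change 1.00, adjusted p = 0.0422) and *Cebpb* (1.10, adjusted p = 0.0384) were called by edgeR's quasi-likelihood test, as were 4.16% of all genes. With a lone EV RV library, both fits assume that it varies as the Tox RV libraries do. A lone library also separates most genes: the groups did not overlap in 9 of the 10 without EV RV replicate 1 (70.2% of all genes) and in 10 of the 10 without EV RV replicate 2 (84.0%), and in 4 and 3 of the 10 without Tox RV replicate 1 or 2 (61.2% and 56.4%). *Chac1*, *Sesn2* and *Ppp1r15a* kept their sign in each of the 4 fits that left out a library, and the other 7 did not. The groups of these 3 genes did not overlap, as in 36.0% of all genes. With such groups, omitting 1 library leaves the sign in place. Groups that overlap can keep their sign as well, and the share of all genes that kept it was not counted.

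**Figure D3:**
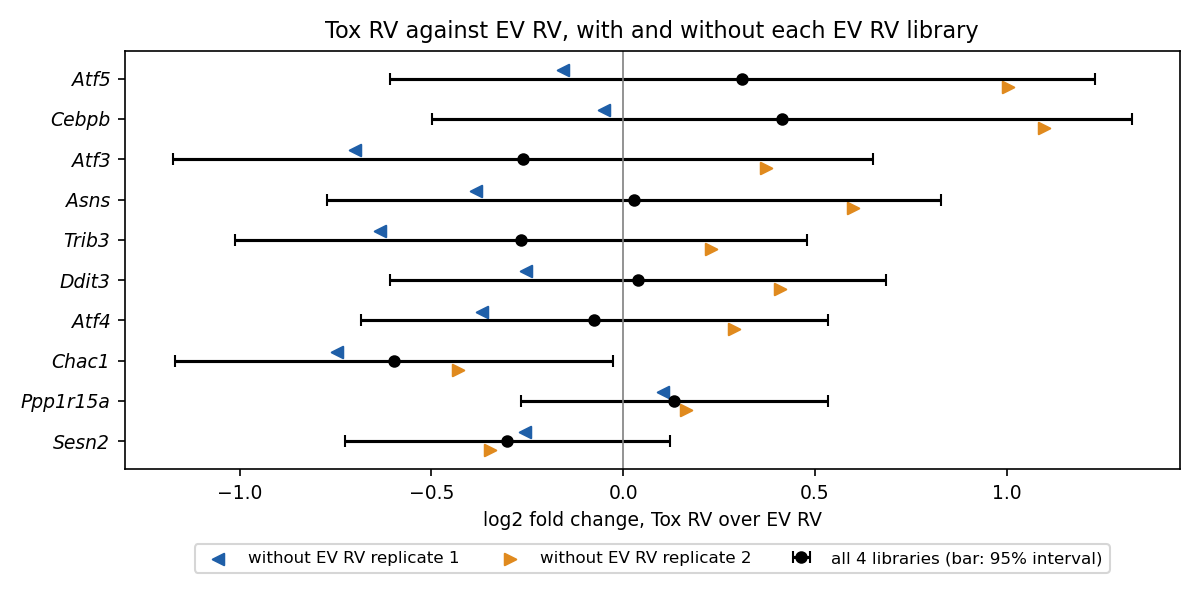
Log2 fold change of Tox RV over EV RV for the 10 genes with all 4 libraries (black, bars giving the 95% interval), without EV RV replicate 1 (blue) and without EV RV replicate 2 (orange). The blue and orange points lie on opposite sides of 0 for 7 genes and on the same side for *Chac1*, *Ppp1r15a* and *Sesn2*.

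The genes around the pathway were followed in 9 further lists with 125 genes tested, of which 57 had a log2 fold change above 0 and 68 below. In edgeR's quasi-likelihood test 0 were called, and in DESeq2 also 0. An unadjusted p-value below 0.05 was found for 3 of them, or 2.40%, against 3.62% of all genes. These were *Jdp2*, *Eif4ebp1* and *Slc6a9*, each with an edgeR adjusted p of 0.897. Of the 38 genes named from these lists, 11 changed sign when an EV RV library was left out, and each is given with its value in such a fit.

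Upstream, *Eif2ak1*, *Eif2ak2*, *Eif2ak3* and *Eif2ak4* encode the heme-regulated, RNA-activated, endoplasmic reticulum and amino acid sensing kinases. Their list, with regulators of the kinases, had 5 of 9 genes above 0 and 4 below, a median log2 fold change of 0.02 and 0 called. *Eif2ak2* was at 74.9 and 94.6 CPM with EV RV against 62.8 and 71.9 CPM with Tox RV, a log2 fold change of -0.33 (standard error 0.20). The log2 fold changes of the remaining kinases were -0.15 for *Eif2ak3*, 0.02 for *Eif2ak1* and 0.10 for *Eif2ak4*. *Dnajc3*, whose product inhibits some of these kinases, had the largest value of the list at 0.36 (0.013 without EV RV replicate 1). *Dnajc3* was also the most abundant per length, at 129 CPM in EV RV replicate 1 and 205 to 247 CPM in the other libraries. *Gcn1l1*, which encodes the activator of the amino acid sensing kinase, had -0.22.

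The list of eIF2, its exchange factor eIF2B and its phosphatases also held *Eif2a* and *Eif2d*, which encode separate initiation factors. It had 11 of 14 genes above 0 and 0 called, with a median log2 fold change of 0.22. EV RV replicate 1 was the lowest library in 11 of the 14, and without that library the median was 0.01. *Eif2s1*, which encodes the phosphorylated subunit of eIF2, was at 124 and 210 CPM with EV RV against 216 and 212 CPM with Tox RV. Its log2 fold change of 0.36 (standard error 0.27) was 0.02 without EV RV replicate 1. *Eif2b1*, a regulatory subunit of eIF2B, was at 32.4 and 42.7 CPM with EV RV against 47.7 and 47.0 CPM with Tox RV (log2 fold change 0.33, standard error 0.20). *Ppp1r15b*, the constitutive counterpart of *Ppp1r15a*, was at 201 to 222 CPM in all 4 libraries, with a log2 fold change of -0.06. *Eif2a* had a log2 fold change of 0.33, and *Ppp1ca*, the most abundant gene of the list per length, one of 0.21.

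Of the relatives of the 10 genes, 6 of 16 were above 0 and 10 below. *Jdp2* encodes a repressor that binds the same DNA elements as ATF family factors. It averaged 10.2 ± 1.21 CPM with EV RV and 15.3 ± 0.726 CPM with Tox RV (SD, n = 2 libraries each), and its log2 fold change came to 0.59 (standard error 0.20). Both Tox RV libraries were above both EV RV libraries. *Trib1*, *Trib2*, *Sesn1*, *Sesn3* and *Chac2* had log2 fold changes of -0.29, -0.55, -0.13, -0.37 and -0.10, each with a 95% interval that included 0. None of these 5 kept its sign: without EV RV replicate 1, *Trib2*, *Sesn3* and *Sesn1* were at 0.37, 0.33 and 0.11, and without EV RV replicate 2, *Trib1* and *Chac2* were at 0.0082 and 0.23. *Sesn3*, the most abundant gene of this list per length, was at 263 and 117 CPM with EV RV against 161 and 134 CPM with Tox RV. EV RV replicate 1 was thus the highest library for *Sesn3*, opposite to its place for *Atf4*. *Atf7* had a log2 fold change of -0.48, which was -0.098 without EV RV replicate 1 and -0.79 without EV RV replicate 2. The one gene of all 9 lists beyond 2-fold was *Cebpa*, at only 0.0385 to 0.356 CPM, too low for its fold to be read.

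Among further stress targets, 6 of 19 genes were above 0 and 13 below, with a median log2 fold change of -0.12. *Eif4ebp1* encodes a repressor of cap-dependent translation that ATF4 is known to turn on. It was at 34.9 and 33.9 CPM with EV RV against 23.2 and 22.8 CPM with Tox RV, with replicates nearly equal in both groups. Its log2 fold change was -0.58 (standard error 0.16, 95% interval -0.99 to -0.17), and omitting single libraries moved it only between -0.60 and -0.56. *Hmox1*, *Bbc3* and *Sqstm1*, the last the most abundant per length, had log2 fold changes of 0.36, -0.31 and -0.12. Without EV RV replicate 1 *Bbc3* was at 0.31 and *Hmox1* at 0.13, and without EV RV replicate 2 they were at -0.74 and 0.63. *Gdf15* stayed at 2 to 5 counts and *Fgf21* at 0 in each library, so a change of these secreted stress factors was not detectable at this depth.

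The list of ATF4 targets in amino acid supply had 3 of 19 genes above 0 and 16 below, a median log2 fold change of -0.20 and 0 called. Both Tox RV libraries were below both EV RV libraries in 7 of the 19, against 17.4% of all genes. The list's median was -0.34 without EV RV replicate 1 and 0.07 without EV RV replicate 2. *Slc6a9*, a glycine transporter, was at 15.8 and 19.6 CPM with EV RV against 11.8 and 9.50 CPM with Tox RV, a log2 fold change of -0.74 (standard error 0.22, 95% interval -1.28 to -0.20). The amino acid transporter genes *Slc7a1* and *Slc1a4* had values of -0.40 and -0.43 with groups that did not overlap either. *Phgdh*, the entry enzyme of serine synthesis and the most abundant gene of the list per length, had a log2 fold change of -0.03, with -0.30 without EV RV replicate 1 and 0.28 without EV RV replicate 2.

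The tRNA synthetase genes that respond to ATF4 had 5 of 12 above 0, a median log2 fold change of -0.03 and a range from -0.24 (*Wars*) to 0.31 (*Sars*), with *Tars* at 0.22 and *Gars*, the most abundant per length, at -0.08. *Tars* was at -0.054 and *Gars* at -0.23 without EV RV replicate 1, and they were at 0.55 and 0.078 without EV RV replicate 2. Genes of the IRE1 and ATF6 arms, the branches of the unfolded protein response that run beside ATF4, had 11 of 14 above 0 with a median of 0.23. EV RV replicate 1 was the lowest library in 12 of those 14. The median of that list was -0.13 without EV RV replicate 1 and 0.77 without EV RV replicate 2. *Calr*, which encodes a chaperone of the endoplasmic reticulum, was at 729 CPM in EV RV replicate 1 and 1181 to 1391 CPM in the other libraries, and its log2 fold change of 0.36 was followed by 0.31 for *Dnajb9* and 0.31 for *Pdia6*. Without EV RV replicate 1 *Calr* was at 0.013 and *Pdia6* at -0.15, and without EV RV replicate 2 they were at 0.82 and 0.97. The amino acid sensors upstream of mTORC1 had 5 of 15 above 0 (median -0.06), and the genes for ATF4 turnover 5 of 7 (median 0.06), with 0 called in either list. In the former, *Gatsl2*, *Nprl2*, *Rragd* and *Sec13* had log2 fold changes of -0.83, 0.39, -0.34 and 0.32. *Gatsl2* was at 14.9 CPM in EV RV replicate 1 and 3.77 to 5.63 CPM in the other libraries, and its value was 0.46 without EV RV replicate 1 and -1.51 without EV RV replicate 2. *Sec13* was at 0.039 without EV RV replicate 1, and *Rragd* at -0.044 without EV RV replicate 2. In the latter, *Skp1a*, *Egln3*, *Csnk1d* and *Csnk1a1* had 0.36, -0.31, -0.21 and 0.19.

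**Figure D4:**
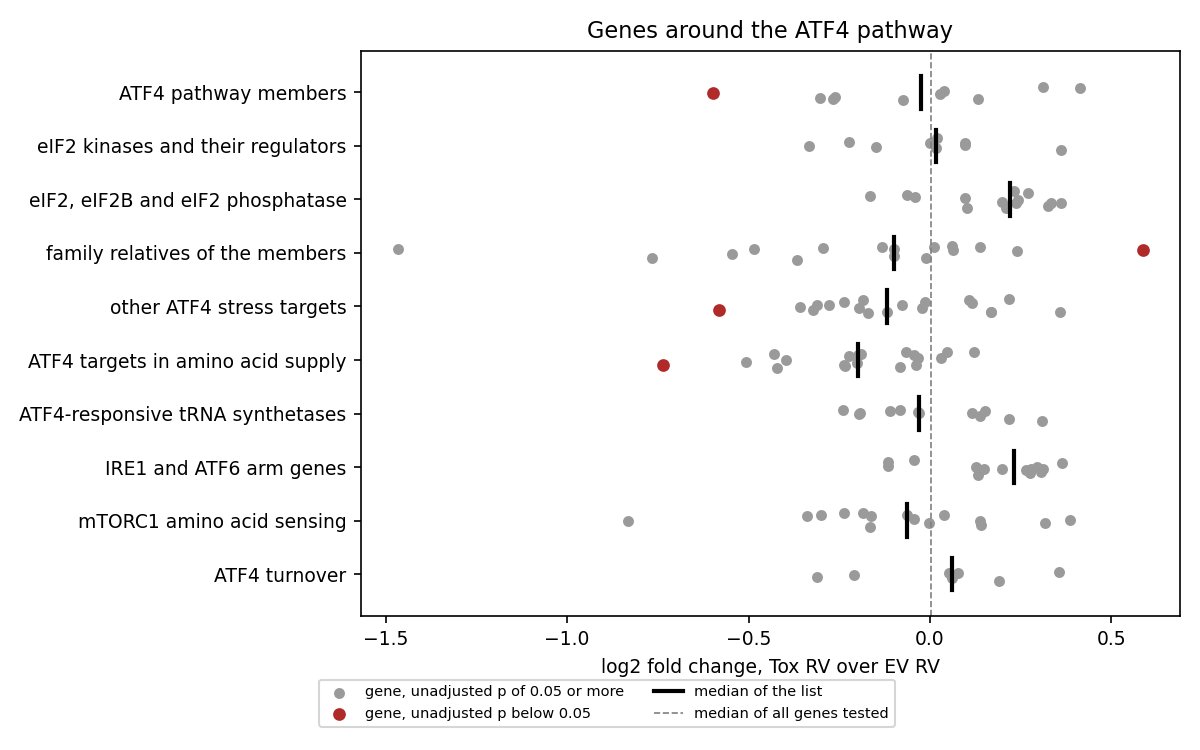
Log2 fold change of Tox RV over EV RV for each tested gene of the 10 genes and the 9 further lists, with the median of each list as a black bar and that of all genes as a dashed line. Red points had an unadjusted p-value below 0.05 in edgeR's quasi-likelihood test (*Chac1*, *Jdp2*, *Eif4ebp1* and *Slc6a9*), and the list medians lie between -0.20 and 0.23.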

How the data were processed

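Per the study's methods, the authors checked reads with fastqc, aligned them with bowtie1 to mm10 transcripts and quantified genes with RSEM (the labels' tool list also names Bowtie2). Versions and use of strand are not given in the sources used here. The deposited expected counts are RSEM's estimated fragments per gene, 1 library per file and not normalized. The TPM values, also deposited, count transcripts in 1000000, and the deposited FPKM values, which were not needed here, are fragments per kilobase of transcript and 1000000 fragments. A deposited table of the whole series was not used, because the table is named TPM but its columns do not sum to 1000000.

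After rounding the expected counts, genes were tested with edgeR 4.0.16 under R 4.3.3 (filterByExpr with a minimum count of 10, TMM scaling, glmQLFit and glmQLFTest, no block for the replicate number). P-values were adjusted over all 14143 genes tested by the Benjamini-Hochberg method. Standard errors came from the fold change and the F statistic. The study's methods name DESeq2, which was run as an alternative (version 1.42.0), as was limma 3.58.1 on log2(TPM + 1) and log2(TPM + 0.1). Further alternatives changed the scaling, the filter, the block and the libraries.

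The 10 genes, the lists and the alternatives were chosen with earlier results of these data known. Each list names its genes with an unadjusted p-value below 0.05, the largest fold changes among genes of at least 5 CPM and the most abundant gene. Listed symbols absent from the files were matched through RefSeq synonyms. Promoters, positions and overlaps came from RefSeq on GRCm38.p6, the same build as mm10, and strands from GENCODE M21. A blastn 2.17.0 search of GENCODE M21 transcripts found a near-identical stretch outside its own gene for 1 member, *Cebpb* (320 bases, in a transcript named *Tmem189*). On simulated counts for this comparison, edgeR found 24% of 100 genes set to a 2-fold change and 98% of 100 set to a 4-fold change among 14012 genes tested, and called 12 unchanged genes. Over 5 random draws these shares ranged from 19% to 39% and from 97% to 100%, while in the real libraries the same test did not call *Tox*, whose log2 fold change was 3.68. One marker gene is not reported here.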

Additional observations from a re-analysis of the deposited data

How the results depend on the processing

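The number of genes called over all genes was 0, against 22 in DESeq2, 22 when low counts were not filtered and 16 under the replicate block, and it ranged from 1 to 600 with each library left out, the highest without EV RV replicate 2. Members called stayed at 0 in every setting except without EV RV replicate 2 (range 0 to 2), and members whose groups did not overlap ranged from 3 to 10 with each library left out, 10 of 10 without EV RV replicate 2, where a lone control library left 84.0% of all genes apart. The median of the members was 0.07 with scaling by library totals, which moved the median of all genes to 0.12, and between -0.07 and 0.02 in the other settings that kept all libraries. *Atf4* turned to 0.026 with library totals, *Asns* to -0.0059 with library totals without *Rn45s*, and *Ddit3* to -0.013 in both limma fits. With each library left out, values ranged from -0.37 to 0.29 for *Atf4*, -0.70 to 0.37 for *Atf3*, -0.16 to 1.00 for *Atf5*, -0.25 to 0.41 for *Ddit3*, -0.63 to 0.23 for *Trib3*, -0.38 to 0.60 for *Asns* and -0.049 to 1.10 for *Cebpb*. The cause of these moves was not tested.

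The block changed no call of a member. Over all genes, replicates with the same number deviated together (correlation 0.30 across genes, 2 pairs), but the labels do not tie a number to 1 mouse. In the members the median gaps of the groups had opposite signs. The EV RV gap of the members had a median of -0.75 in CPM and -0.67 in TPM, and their Tox RV gap had a median of 0.09 in both. The promoter letters were found in 4 members as TGATGNAA, 2 as TGATGCAA, 1 as TGACGTCA and 1 as TGACGCAA. With 2 libraries a group, edgeR recovered 19% to 39% of 2-fold changes over 5 simulated draws and DESeq2 43% to 64%. In 1 of these draws edgeR called 12 unchanged genes and DESeq2 called 41. The simulation drew each gene separately around 1 mean per group, with no library standing apart as EV RV replicate 1 did. These shares therefore do not carry over to the real libraries, where edgeR did not call *Tox*. The lowest adjusted p of edgeR's main test over all genes was 0.490. Changes of the members, large as well as small, can therefore go uncalled in it.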
